A study of Mus musculus with 8 samples.

Results

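The genes encoded by mitochondrial DNA (mtDNA) were examined in bulk RNA-seq of brown adipose tissue (BAT), the thermogenic fat of rodents. Members were taken as every mouse gene whose symbol starts with mt-, which in the GENCODE annotation of the mouse build GRCm38 (mm10) gave 37 genes, namely 13 protein-coding, 2 ribosomal RNA and 22 transfer RNA genes. The count table held 31053 genes, of which 13 were mtDNA genes, all of them protein-coding. The other 24 members, the rRNA and tRNA genes, were not analysed here. The 8 samples were 4 WT mice of strain C57BL6/J and 4 db/db mice, labelled DB_DB and homozygous for a mutation of the leptin receptor gene Lepr. All were males aged 8 weeks on a normal diet, and tissue was taken after fasting. The study's sources name the supplier of the WT mice in 2 ways, of which one is the supplier of the db/db mice, so whether supplier differed with genotype is not known here. The study's methods name the db/db line as B6.BKS(D)-Lepr db/J, and whether the background strain differed with genotype was not checked. Lepr had 0 counts in all 8 libraries, so its own transcript gave no check of the labels.

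Mammalian mtDNA is a small circular genome that codes for core subunits of the respiratory chain and for the rRNAs and tRNAs that translate them inside the organelle. Its genes lie head to tail without introns and are copied into long transcripts from both strands. These are then cut, mostly at the tRNAs, and most of the mRNAs are polyadenylated. Complexes I, III, IV and V each combine subunits from mtDNA with subunits from nuclear genes, whereas complex II is wholly nuclear. Brown adipocytes are packed with mitochondria, which burn fuel to make heat.

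The WT libraries held between 2374079 and 2615009 counts and the db/db libraries between 2382722 and 3240074, of which between 757852 and 1191181 fell on the 13 mtDNA genes. Levels are given in nuclear CPM, the count of a gene scaled to 1000000 nuclear counts of its library after the TMM factor of the library is applied to them. The labels name the tissue as BAT and also give a cell type, Stromal Vascular Fraction, a preparation from which mature adipocytes are removed. The markers were those of whole tissue: 8 brown adipocyte genes, among them Ucp1, summed to between 11870 and 14780 nuclear CPM in WT and between 4853 and 8845 in db/db, and all 8 had counts. The groups also differed in other cell type markers. All 13 skeletal muscle genes rose in db/db, from a summed 701.1 to 2446 in WT to 3641 to 17960, with db/db 1 the highest. Of the macrophage list 7 of 8 genes tested rose, from a summed 222.3 to 299.3 to between 1012 and 1804. Of the brown adipocyte list 5 of 7 genes tested fell. White adipocyte genes rose for 4 of 6, from a summed 156.5 to 499.3 to between 2012 and 3704, and all 6 stromal genes rose, from 747.5 to 940.1 to between 1516 and 3120. Endothelial genes fell for 3 of 6, from 410.4 to 491.8 to between 301 and 345.5, and of 5 erythroid genes 1 rose. The general adipocyte list overlapped between the groups, with 2 of 6 genes higher and 1 lower. A muscle score per sample, used below as a covariate, lay between -1.28 and -0.13 for WT samples and between 0.03 and 1.67 for db/db samples. Since it did not overlap between the groups, the standard error of a fold change was larger with it in the fit, by a median ratio of 1.78 over all genes, and a call lost in that fit does not show a smaller change. In bulk tissue, fewer cells of a type and less RNA per cell cannot be told apart.

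The 3′ ends of 6 genes are shown first, because they show which genes share their end with a nuclear transcript. Parts of mtDNA also exist as copies in the nuclear genome, and a read that lies in an identical stretch cannot be assigned to one of the 2 genomes. Each gene was therefore cut into all windows of 75 bases, the read length, and each window was searched on both strands in the annotated nuclear transcripts. The lines below give the last 60 bases of 6 genes on the coding strand, 5′ to 3′, and capitals mark bases that lie in no shared window.

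mt-Nd5: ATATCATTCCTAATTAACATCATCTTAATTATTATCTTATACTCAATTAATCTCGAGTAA
mt-Cytb: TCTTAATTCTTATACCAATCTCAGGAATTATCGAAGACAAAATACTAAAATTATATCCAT
mt-Nd4: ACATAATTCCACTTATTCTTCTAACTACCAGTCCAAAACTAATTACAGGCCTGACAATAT
mt-Co1: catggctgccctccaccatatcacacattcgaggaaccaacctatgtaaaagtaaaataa
mt-Atp6: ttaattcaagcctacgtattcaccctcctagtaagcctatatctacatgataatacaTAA
mt-Co3: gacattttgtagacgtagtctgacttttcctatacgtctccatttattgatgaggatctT

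The first 3 genes had at least 6765 counts in every library and an end that no annotated nuclear transcript held. mt-Co1 also had at least 8036 counts in every library, and its end was shared. The ends of mt-Co1, mt-Atp6 and mt-Co3 were in shared windows, apart from the final bases TAA of mt-Atp6 and T of mt-Co3, which lie past the annotated end of the nuclear copies. mt-Cytb, mt-Nd4 and mt-Co3 have lengths that leave 1 base over a multiple of 3 and end in T, so their stop codon is not complete in the DNA; in mitochondria the poly(A) tail is known to complete such codons.

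The share of windows found in nuclear transcripts was 99.86% for mt-Co3, 99.51% for both mt-Co2 and mt-Atp6, 98.65% for mt-Nd4l and 97.81% for mt-Nd3. It was 61.5% for mt-Nd4, 39.84% for mt-Co1, 5.71% for mt-Nd2 and 1.66% for mt-Nd5. No window of mt-Nd1, mt-Atp8, mt-Nd6 or mt-Cytb was shared. Most shared windows lay in 7 annotated pseudogenes on the minus strand of chromosome 1, within chr1:24611535-24616197. The copies, from Gm29216 (mt-Co1) through Gm28661 (mt-Co2), Gm10925 (mt-Atp6), Gm28437 (mt-Co3), Gm28438 (mt-Nd3) and Gm10222 (mt-Nd4l) to Gm28439 (mt-Nd4), kept the order of the mtDNA genes and their spacing to within 1 base over 4663 bases. mt-Atp8 lies between mt-Co2 and mt-Atp6 in mtDNA, and the matching stretch of chromosome 1 between the pseudogenes was not analysed here, since only annotated transcripts were searched. The pseudogenes themselves were not analysed here, and how reads that fit several places were counted is not given in the sources used here.

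In mt-Nd4 the shared part ended 876 bases into the gene, at the end of Gm28439. The stretch around that point, positions 847 to 906 of the gene at chrM:11013-11072 on the plus strand, is given below with the unshared bases in capitals. The remaining 502 bases of mt-Nd4 were in no shared window.

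mt-Nd4 (847 to 906): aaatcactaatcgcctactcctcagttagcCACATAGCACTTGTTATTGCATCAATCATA

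Per kilobase of gene, levels spanned more than 4 orders of magnitude. Dividing by length assumes that reads fall along the whole gene, which was not checked. Before that division the WT means ran from 303200 nuclear CPM (mt-Nd4) to 1.257 (mt-Nd4l). In WT the mean nuclear CPM per kilobase was 220000 ± 15000 for mt-Nd4, 86540 ± 13200 for mt-Cytb, 50900 ± 3080 for mt-Nd1 and 40330 ± 2070 for mt-Nd2 (SD, n = 4). mt-Co1 followed at 3403 ± 119 and mt-Nd5 at 2530 ± 156 on the same scale. Then came mt-Atp6 at 134.6 ± 15.7, mt-Co3 at 100.1 ± 4.94, mt-Co2 at 78.41 ± 22.3 and mt-Nd3 at 73.66 ± 13.5, of which mt-Co2 and mt-Nd3 differed by less than their spread, as did mt-Co3 and mt-Co2. mt-Nd6 had 44.9 ± 4.85, mt-Atp8 9.097 ± 0.519 and mt-Nd4l 4.233 ± 4.5. The 5 genes with over 90% of their windows shared held between 333 and 488 counts together in each WT library and between 259 and 453 in each db/db library. They lie within the same stretch of mtDNA as the far more abundant mt-Co1 and mt-Nd4. mt-Nd6, with no shared window, was also low, and is the one member on the minus strand, the other 12 being on the plus strand. The part of the nuclear copies in these low counts was not tested, nor was how well each transcript was captured.

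**Figure D1:**
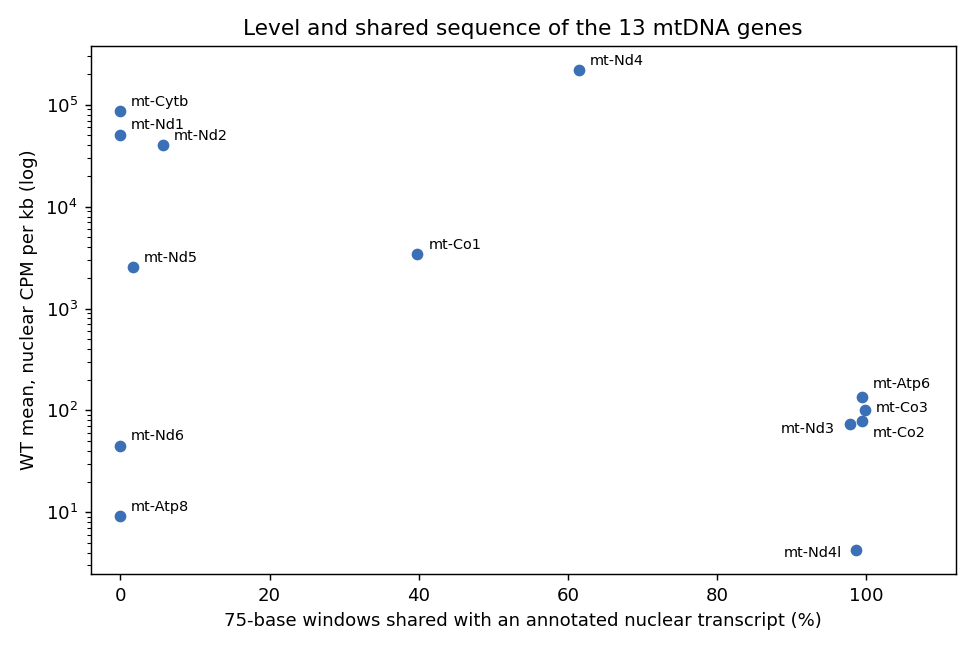
Mean WT level of each of the 13 mtDNA genes (nuclear CPM per kilobase, log axis) against the percentage of its 75-base windows shared with an annotated nuclear transcript. Each point is a gene, and the 5 genes at 97.81% or more lie at or under 134.6, while mt-Nd4 at 61.5% is the highest at 220000.

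The mtDNA genes took 31.92%, 33.92%, 32.8% and 33.98% of all counts in WT 1 to 4 and 30.68%, 36.76%, 37.58% and 37.16% in db/db 1 to 4. The 95% Wilson interval of each was within 0.06 percentage points of the value and covers counting error only. Of the db/db libraries 3 lay above all WT libraries and db/db 1 lay below all of them, so that the groups overlapped, with means of 33.15% ± 0.985 for WT and 35.55% ± 3.26 for db/db (SD, n = 4). The difference of 2.39 percentage points was smaller than the spread in db/db and rose to 4.01 without db/db 1, the library with the highest muscle markers. With skeletal muscle genes left out of the nuclear counts the difference was 2.56 percentage points. The lowest db/db share was then 31.08%, under the lowest WT share of 31.94%. The difference was 0.531 percentage points with mt-Nd4 left out of both sums and 0.424 over the 6 genes with under 10% of their windows shared.

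**Figure D2:**
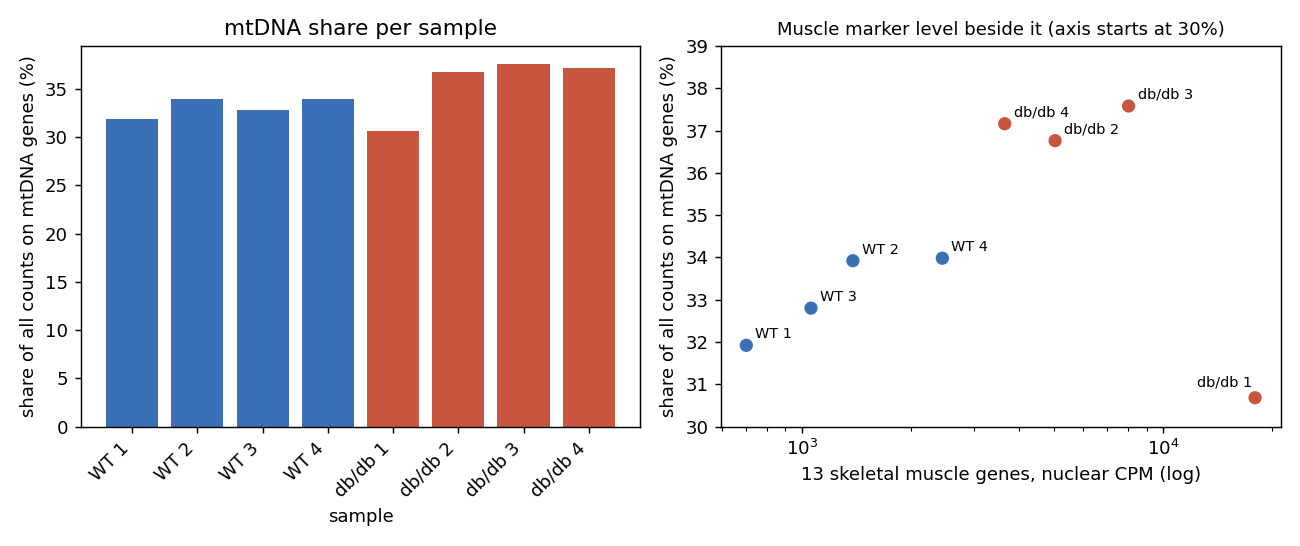
Share of all counts on the 13 mtDNA genes in percent, as a bar per sample starting at 0 on the left, and on the right against the summed level of 13 skeletal muscle genes (nuclear CPM, log axis, with a share axis from 30%). WT is blue and db/db red, and db/db 1 has the lowest share, 30.68%, and the highest muscle level, 17960.

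To ask which mtDNA genes differed between db/db and WT BAT, counts were scaled by nuclear counts alone, so that the third of the library on mtDNA did not enter the scaling. Of the 13 members 11 passed the filter on low counts, and mt-Atp8 and mt-Nd4l did not. In edgeR's quasi-likelihood test with Benjamini-Hochberg adjustment over 9264 genes, mt-Nd5 rose, mt-Atp6 and mt-Co3 fell, and the other 8 did not pass 0.05. Over all genes tested 15.5% were called higher and 12.4% lower, so 1 and 2 of 11 are not set apart from that background by their number. The median log2 fold change was -0.09 over the 11 members and -0.01 over all genes. With the muscle score as a covariate these medians were 0.22, with 3 of the 11 negative, and 0.01. The standard errors of the members were then larger by a median ratio of 1.75. The groups did not overlap for 4 of the 11, against 28.4% of all genes tested.

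**Figure D3:**
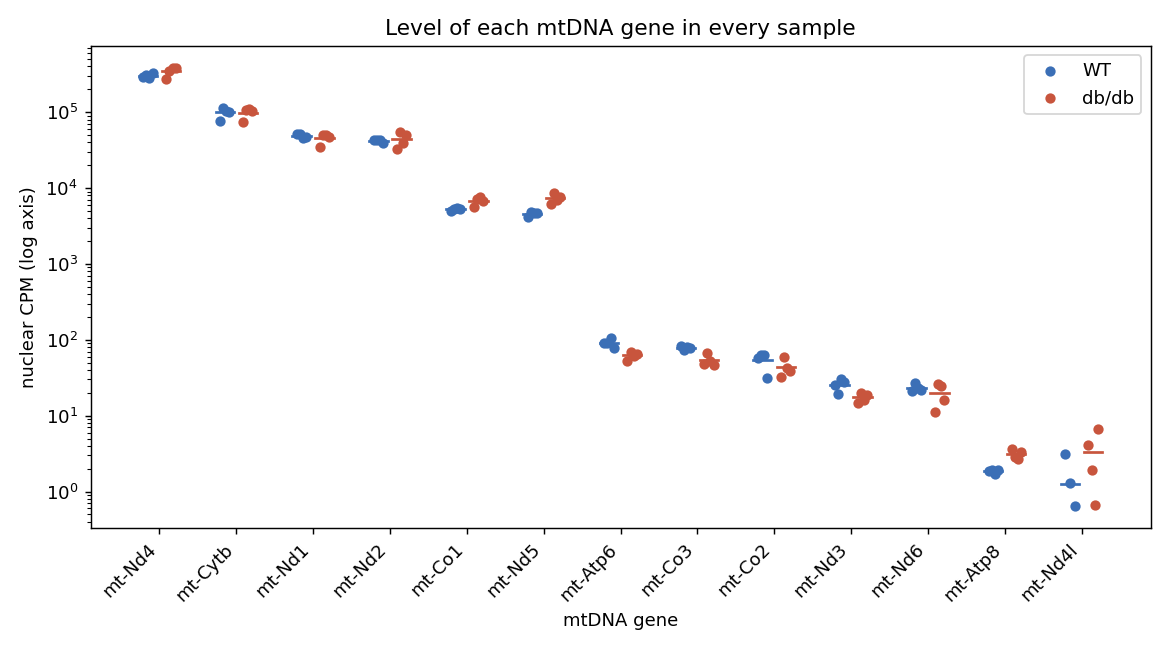
Level of each of the 13 mtDNA genes in every sample (nuclear CPM, log axis), ordered by mean level, with WT in blue and db/db in red. Points are samples and short lines are group means, and the 1 library of mt-Nd4l at 0 is not drawn. The genes fall into a high set from mt-Nd4 to mt-Nd5 and a low set from mt-Atp6 down, and the mt-Nd5 points do not overlap.

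Complex I, the NADH dehydrogenase, takes 7 subunits from mtDNA. mt-Nd5 (ENSMUSG00000064367, chrM:11742-13565), part of its proton pumping arm, had 4201, 4842, 4674 and 4746 nuclear CPM in WT 1 to 4 and 6117, 8483, 7026 and 7666 in db/db 1 to 4. Every db/db library was above every WT library. The level was 1.59-fold higher in db/db (log2 fold change 0.67, SE 0.14, adjusted p = 0.00188 in edgeR), and with any 1 library left out the adjusted p reached at most 0.00976. With the muscle score of each sample as a covariate the log2 fold change was 0.84 with an adjusted p of 0.0493, and mt-Nd5 was then the only member called. mt-Nd5 overlaps mt-Nd6 on the opposite strand by 14 bases, and the strand setting of the counting is not given in the sources used here.

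mt-Nd4 (ENSMUSG00000064363, chrM:10167-11544), a neighbour of the mt-Nd5 protein in the same arm, was the most abundant member. It had 289600, 308200, 284800 and 330300 nuclear CPM in WT 1 to 4 and 274100, 344600, 383700 and 378100 in db/db 1 to 4. The groups overlapped through db/db 1, with a log2 fold change of 0.19 (SE 0.19, adjusted p = 0.517 in edgeR). mt-Nd2 (ENSMUSG00000064345, chrM:3914-4951) had 42850, 43510, 42380 and 38710 in WT and 32560, 54850, 38670 and 50760 in db/db. The db/db libraries spread on both sides of WT, with a coefficient of variation of 23.5% against 5.14%, and the log2 fold change was 0.08 (adjusted p = 0.792). mt-Nd1 (ENSMUSG00000064341, chrM:2751-3707) had 51340, 50990, 45270 and 47240 in WT and 35000, 50050, 50160 and 47440 in db/db, with a log2 fold change of -0.09 (adjusted p = 0.725). All 3 of these genes code for hydrophobic subunits of the membrane arm of complex I.

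The other complex I genes had few counts. mt-Nd3 (ENSMUSG00000064360, chrM:9459-9806) had 25.46, 19.17, 30.11 and 27.79 nuclear CPM in WT and 14.85, 20.2, 16.02 and 18.54 in db/db, and the groups overlapped between WT 2 and db/db 2 (log2 fold change -0.56, SE 0.24, adjusted p = 0.0893). mt-Nd6 (ENSMUSG00000064368, chrM:13552-14070, minus strand) had between 34 and 42 counts in WT and between 25 and 55 in db/db, with a log2 fold change of -0.25 (adjusted p = 0.531). mt-Nd4l (ENSMUSG00000065947, chrM:9877-10173) had 5, 2, 0 and 1 counts in WT and 9, 4, 1 and 12 in db/db, too few to test. mt-Nd4l and mt-Nd4 overlap by 7 bases, and mt-Nd3 and mt-Nd4l are among the genes whose windows the chromosome 1 copy shares, so their values are uncertain.

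Complex III takes a single subunit from mtDNA, cytochrome b, whose gene mt-Cytb (ENSMUSG00000064370, chrM:14145-15288) was the second most abundant member. It had 77340, 112400, 104500 and 101800 nuclear CPM in WT and 73340, 107300, 110300 and 104300 in db/db. WT 1 and db/db 1 were the low libraries of their groups, and the group means were nearly equal (log2 fold change -0.00, SE 0.19, adjusted p = 0.994).

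Complex IV, cytochrome c oxidase, takes its catalytic core from mtDNA. mt-Co1 (ENSMUSG00000064351, chrM:5328-6872), the subunit that reduces oxygen, had 4990, 5371, 5383 and 5285 nuclear CPM in WT and 5611, 7192, 7570 and 6848 in db/db. The groups did not overlap, and the log2 fold change was 0.37 (SE 0.14) with an adjusted p of 0.0548 in edgeR, outside the threshold. Without db/db 1, the lowest of its group, the adjusted p was 0.00564, and without any other single library it was between 0.0806 and 0.138. Over the other scalings, filters and tools it ran from 0.0208 (DESeq2) to 0.0924 (deposited log2 values), and with the muscle score as a covariate the log2 fold change was 0.52 (adjusted p = 0.275). mt-Co3 (ENSMUSG00000064358, chrM:8607-9390) had 83.22, 74.11, 79.53 and 76.92 in WT and 48.59, 66.84, 52.06 and 46.64 in db/db, on raw counts of 116 to 140 and 78 to 139. Every db/db library was below every WT library (log2 fold change -0.55, SE 0.16, adjusted p = 0.0162). mt-Co2 (ENSMUSG00000064354, chrM:7013-7696), which accepts electrons from cytochrome c, had 57.75, 63.25, 62.49 and 31.03 in WT and 32.39, 59.15, 42.05 and 39.33 in db/db, and WT 4 stood apart (log2 fold change -0.31, adjusted p = 0.347). Without WT 4 the value for mt-Co2 was -0.50 (adjusted p = 0.102), without db/db 2 it was -0.49 (adjusted p = 0.15), and without db/db 1 it was -0.18 (adjusted p = 0.639). With the muscle score as a covariate it was 0.38 (SE 0.39, adjusted p = 0.677).

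Complex V, the ATP synthase, takes 2 subunits of its membrane part from mtDNA. mt-Atp6 (ENSMUSG00000064357, chrM:7927-8607), part of its proton channel, had 91.29, 91.36, 105.1 and 78.86 nuclear CPM in WT and 53.09, 69.73, 62.07 and 65.18 in db/db. Every db/db library was below every WT library (log2 fold change -0.55, SE 0.16, adjusted p = 0.0123 in edgeR), on raw counts of 122 to 185 in WT and 93 to 145 in db/db. mt-Atp8 (ENSMUSG00000064356, chrM:7766-7969) had 3 counts in each WT library and 8, 6, 4 and 6 in db/db 1 to 4. It overlaps mt-Atp6 by 43 bases and was not tested. With the muscle score as a covariate mt-Atp6 had a log2 fold change of -0.23 (SE 0.28, adjusted p = 0.738) and mt-Co3 of -0.42 (SE 0.30, adjusted p = 0.522). Both falls were thus measured on few counts, in genes with over 99% of their windows shared with nuclear copies.

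**Figure D4:**
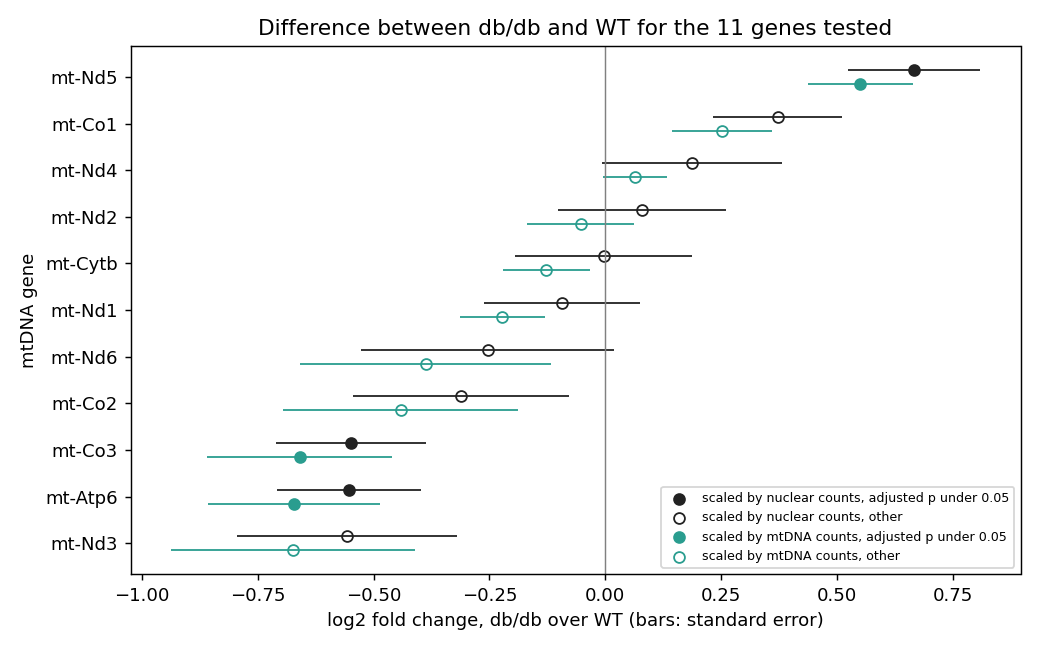
Log2 fold change of db/db over WT with its standard error for the 11 mtDNA genes tested, scaled by nuclear counts (black) or by the mtDNA counts of the sample (green), with filled points at an adjusted p under 0.05. mt-Nd5 is called higher, and mt-Atp6 and mt-Co3 lower, under both scalings.

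Shares of mtDNA counts leave the balance between the 2 genomes aside. mt-Nd4, mt-Cytb, mt-Nd1 and mt-Nd2 together held 97.98% ± 0.0768 of the mtDNA counts of WT samples and 97.37% ± 0.179 of those of db/db samples (SD, n = 4), and counting error of any single share was at most 0.11 percentage points either way (95% Wilson interval). mt-Nd4 alone held 61.54%, 58.64%, 58.45% and 62.52% in WT 1 to 4 and 64.21%, 60.17%, 64.21% and 63.52% in db/db 1 to 4, groups that overlapped. mt-Cytb held 19.63% ± 2.36 in WT and 17.97% ± 0.742 in db/db, and mt-Nd2 8.352% ± 0.763 and 8.05% ± 1.32.

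mt-Nd5 held 0.8927%, 0.9213%, 0.9593% and 0.8982% of the mtDNA counts in WT 1 to 4 and 1.433%, 1.481%, 1.176% and 1.288% in db/db 1 to 4. Every db/db share was above every WT share, a 1.46-fold rise (log2 fold change 0.55, SE 0.11, adjusted p = 0.00181 in edgeR). mt-Nd1 held 10.91%, 9.703%, 9.291% and 8.942% in WT and 8.199%, 8.737%, 8.393% and 7.97% in db/db. The mt-Nd1 shares did not overlap either, but the log2 fold change of -0.22 had an adjusted p of 0.0906. mt-Co1 held 1.047% ± 0.0459 in WT and 1.247% ± 0.0692 in db/db, also without overlap (log2 fold change 0.25, adjusted p = 0.0996).

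Scaled in this way mt-Nd5 rose and mt-Atp6 (log2 fold change -0.67, SE 0.19, adjusted p = 0.0136) and mt-Co3 (-0.66, SE 0.20, adjusted p = 0.0217) fell, against 11.1% of all genes called higher and 12.9% lower. The fall of mt-Co3 did not pass without WT 1 (adjusted p = 0.0657), WT 3 (0.0537), db/db 3 (0.0648) or db/db 4 (0.074), and that of mt-Atp6 did not pass without WT 3 (0.0534). mt-Nd3, with a log2 fold change of -0.67 and an adjusted p of 0.0715, passed without db/db 1 (0.0464). The shares did not overlap for 6 of the 11 genes, against 26.0% of all genes tested when divided by mtDNA counts. As shares of a total dominated by mt-Nd4, these values depend on that gene: scaled by the median ratio over the mtDNA genes instead, mt-Nd5, mt-Co1 (log2 fold change 0.48, adjusted p = 0.00867) and mt-Nd4 (0.29, adjusted p = 0.0436) were called higher and none lower, with mt-Atp6 and mt-Co3 both at -0.44 (adjusted p = 0.101 and 0.127). With mt-Nd4 left out of the library size, mt-Nd5 was called higher (log2 fold change 0.65, adjusted p = 0.00105) and none lower, with mt-Atp6 at -0.57 (adjusted p = 0.0503) and mt-Co3 at -0.56 (adjusted p = 0.0683).

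A pair of ratios within a sample need no scaling at all. The mt-Nd4 count was 68.94, 63.65, 60.93 and 69.6 times the mt-Nd5 count in WT 1 to 4 and 44.81, 40.63, 54.61 and 49.32 times in db/db 1 to 4. The ratio was lower in all 4 db/db libraries (65.78 ± 4.19 against 47.34 ± 6.01, SD, n = 4 each, exact two-sided permutation p = 0.0286, the smallest that the 70 allocations can give). The mt-Nd5 count was 180.4 to 215.9 times the mt-Nd6 count, its neighbour on the opposite strand, in WT and 284.5 to 543.8 times in db/db, without overlap (exact permutation p = 0.0286). The mt-Nd6 counts behind that ratio were between 25 and 55. The share of mt-Nd4 in mtDNA counts was 2.74 percentage points higher in db/db, with SDs of 2.05 and 1.93, and did not pass (exact permutation p = 0.114). Adjusted over these 3 tests, p was 0.0429, 0.0429 and 0.114, and both ratios share the mt-Nd5 counts already described.

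The nuclear genes that copy, process and translate mtDNA were taken as a list of 109 genes, of which 108 were found in the table and 91 were tested. Of these 1 rose and 16 fell, which is 1.10% and 17.6% against 15.5% and 12.4% of all genes, and 74 did not pass. Their median log2 fold change was -0.28. The number that fell was 10 without WT 1, without db/db 1 or with nuclear counts without TMM, and 1 with the muscle score as a covariate. The muscle, macrophage, white adipocyte and stromal markers were higher and the brown adipocyte and endothelial markers lower in the same db/db samples, and apart from that fit their part was not tested. By role, 3 of 5 nuclear regulators of mitochondrial genes, 2 of 5 transcription genes, 3 of 12 translation factors, 2 of 20 tRNA charging genes, 2 of 17 RNA modification genes, 2 of 13 RNA stability and polyadenylation genes, 1 of 8 genes of RNA cutting and decay and 1 of 5 of nucleotide supply fell. None of 6 replication genes passed in edgeR. An unadjusted p under 0.05 was reached by 33 of the 91 genes, beside 3638 of all 9264 genes tested.

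In transcription, Polrmt, the RNA polymerase of mtDNA, fell from 28.7 ± 7.32 to 17.47 ± 3.61 nuclear CPM (SD, n = 4 each, log2 fold change -0.70, adjusted p = 0.0434), but the groups overlapped and the call was lost without any of WT 1, WT 2, WT 3, db/db 1, db/db 3 or db/db 4, with adjusted p up to 0.149, and also with limma-voom (0.0524) and with nuclear counts without TMM (0.0581). With the muscle score as a covariate Polrmt had a log2 fold change of -0.27 (SE 0.45, adjusted p = 0.819). Tfam, which packages mtDNA and starts its transcription, was at 38.78 ± 9.11 in WT and 27.12 ± 3.43 in db/db (adjusted p = 0.0875, or 0.0221 without WT 1 and 0.0931 to 0.202 without any other library), and Tfb2m, which opens the promoter, at 17.34 ± 7.41 and 11.66 ± 4.04 (adjusted p = 0.227). Among replication genes, Polg, the mtDNA polymerase, had a log2 fold change of -0.60 with an adjusted p of 0.0505, on the edge of the threshold. Its adjusted p ran from 0.0235 (without db/db 3) to 0.158 (without db/db 1) with a library left out, with 0.0468 without db/db 4 the only other pass, and from 0.0334 to 0.0641 over the other scalings, filters and tools. With the muscle score as a covariate Polg had a log2 fold change of -0.18 (SE 0.38, adjusted p = 0.865). Twnk, the helicase, had -0.79 (adjusted p = 0.0866, or 0.0277 without WT 3 and 0.0872 to 0.233 without any other library) and Ssbp1, the single-strand binding protein, -0.20 (adjusted p = 0.653).

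Among genes that stabilise mitochondrial mRNA, Lrpprc was at 695.4 ± 116 in WT and 702.1 ± 191 in db/db (log2 fold change 0.01, SE 0.18) and its partner Slirp at 143.4 ± 15.3 and 147.8 ± 12.8 (0.04, SE 0.13). Mtpap, the poly(A) polymerase, had a log2 fold change of -0.40 (adjusted p = 0.31). The largest fall of the list was that of Trit1, which modifies tRNAs of the cytosol and of mitochondria, from 134 ± 8.14 to 35.37 ± 5.04 (log2 fold change -1.93, SE 0.16, adjusted p = 1.08e-07). Slc25a33, a pyrimidine nucleotide carrier of mitochondria, fell from 35.63 ± 4.49 to 12.37 ± 2.48 (-1.52, adjusted p = 9.84e-05). Mrm1, which methylates mitochondrial rRNA, fell by 1.12 on the log2 scale (adjusted p = 0.0139, or 0.0771 without WT 1), but its value turned to 0.12 (SE 0.47, adjusted p = 0.925) with the muscle score as a covariate. Trub2, a pseudouridine synthase, was the gene that rose (0.76, adjusted p = 0.0261), a call lost without WT 2, WT 4, db/db 1 or db/db 3 (adjusted p 0.0553 to 0.09).

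Of the nuclear regulators, Ppargc1b, a coactivator of mitochondrial gene programmes, fell from 129.4 ± 28.3 to 56.45 ± 17.1 (log2 fold change -1.20, SE 0.22, adjusted p = 0.000471). Its relative Ppargc1a fell from 40.32 ± 11.2 to 22.9 ± 4.46 (-0.81, adjusted p = 0.0143, or 0.0716 without WT 4). Nrf1, a transcription factor of nuclear genes for mitochondria, had -0.18 (adjusted p = 0.744). With the muscle score as a covariate 1 gene of the list, Trit1, was called lower (log2 fold change -1.71, adjusted p = 0.000517) and none higher, with 9 genes at an unadjusted p under 0.05. Slc25a33 was at -1.36 (SE 0.42, adjusted p = 0.06) in that fit, Ppargc1a at -1.06 (SE 0.40), Trub2 at 0.70 (SE 0.44) and Ppargc1b at -0.59 (SE 0.33), beside the values of Polrmt and Mrm1 given above. The median of the list was -0.13 with the covariate and 57 of 91 genes were negative, against 0.01 and 4563 of 9264 over all genes. In that fit 556 genes were called in all, against 2590 without the covariate. An unadjusted p under 0.05 was reached there by 1691 of all 9264 genes.

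The nuclear subunits that assemble with the mtDNA products were set beside them by complex. Of 78 listed genes 77 were tested, and 4 rose and 41 fell (5.19% and 53.2% of those tested, against 15.5% and 12.4% of all genes), with a median log2 fold change of -0.39 against -0.01 over all genes. In complex I, 21 of 36 nuclear genes fell and none rose, with a median of -0.41, while of the 6 mtDNA genes tested mt-Nd5 rose and none fell. Ndufs8, an iron-sulfur subunit, had the largest fall of complex I (log2 fold change -0.73, SE 0.15, adjusted p = 0.00149). In complex III, 6 of 9 fell and none rose, with Uqcr10 at -0.82 (adjusted p = 0.000492), beside mt-Cytb at -0.00.

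In complex IV, 8 of 14 nuclear genes fell and 1 rose, while mt-Co3 fell (log2 fold change -0.55, adjusted p = 0.0162 in edgeR). mt-Co1 and mt-Co2 were not called. Cox6a1 fell from 6694 ± 417 to 3758 ± 538 (log2 fold change -0.83, adjusted p = 0.000297), while Cox6a2, the form of the same subunit found in heart and skeletal muscle, rose from 34.07 ± 23.1 to 383.3 ± 285 (3.50, SE 0.47, adjusted p = 2.85e-05), together with the muscle genes above. In complex V, 6 of 18 nuclear genes fell, with Atp5j2 at -0.80 (adjusted p = 0.000396), and 3 rose, with Atp5g1, a gene of the c-ring, at 2.24 (adjusted p = 3.8e-05). mt-Atp6 fell as well (-0.55, adjusted p = 0.0123), and mt-Atp8 was not tested. Beside the fall of the nuclear subunit genes, muscle, macrophage, white adipocyte and stromal markers were higher in db/db. Brown adipocyte and endothelial markers were lower. The part of these markers in that fall was not tested, apart from the fit with the muscle score. With the muscle score as a covariate none of the nuclear subunit genes was called lower in edgeR and 1 was called higher (Cox6a2). In that fit 6 of the 77 had an unadjusted p under 0.05, against 1691 of all 9264 genes tested. The median log2 fold change of the list in that fit was -0.16, with 55 of 77 genes negative, against 0.01 and 4563 of 9264 over all genes. Uqcr10, for example, was at -0.56 (SE 0.25) and Ndufs8 at -0.42 (SE 0.24), and the standard errors were larger by a median ratio of 1.70. Without WT 2 or WT 4 the number that fell was 27 or 25. Whether the mtDNA genes and the nuclear subunits differed in their change was not tested.

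**Figure D5:**
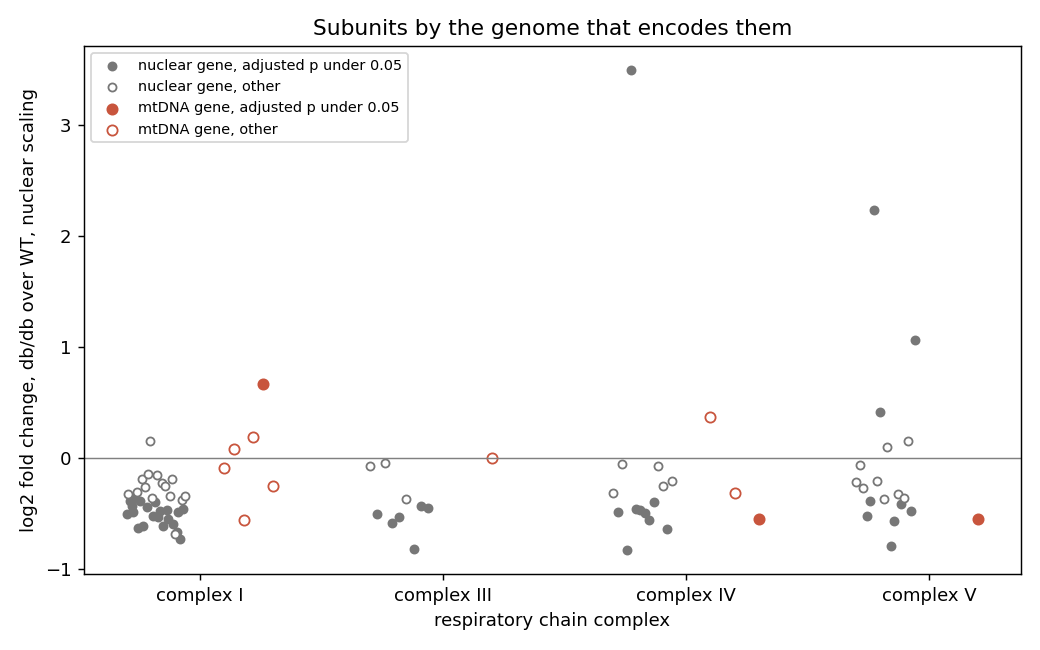
Log2 fold change of db/db over WT, scaled by nuclear counts, for nuclear genes (grey) and mtDNA genes (red) of complexes I, III, IV and V, each point being a gene and filled points having an adjusted p under 0.05. Most nuclear points lie under 0, with Cox6a2 at 3.50 and Atp5g1 at 2.24 far above. mt-Nd5 is the only filled mtDNA point above 0, and mt-Co3 and mt-Atp6, both at -0.55, are filled under 0.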

How the data were processed

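RNA of BAT from 4 WT and 4 db/db mice was sequenced for the authors by a service named Digital mRNA-seq, with single reads of 75 bases. Whether its reads come from the 3′ ends of transcripts is not given in the sources used here. Per the study's methods, reads were trimmed with bbduk, aligned to mm10 with STAR and counted per gene with HTSeq-count, and the raw counts were deposited; the submitters' processing notes instead name Trimmomatic, HISAT2 and DESeq2. The authors also deposited log2 values, which equalled log2 of the count divided by the DESeq2 size factor plus 1. Whether molecular identifiers were collapsed is not given in the sources used here. The sample sheet was not used here.

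Of 31053 identifiers 30934 matched GENCODE on GRCm38, the same build. Counts were filtered with filterByExpr (minimum count 10, minimum total 15), and library size was the sum of nuclear counts times a TMM factor from nuclear genes. The quasi-likelihood test of edgeR 4.0.16 (R 4.3.3) had genotype as the only term, with Benjamini-Hochberg adjustment over 9264 genes at 0.05. A second fit used the sum of mtDNA counts as library size and was read for mtDNA genes, with the share of all genes called in it as background. Levels in nuclear CPM are counts divided by the effective nuclear library size, times 1000000. A count of 3 corresponds to between 1.35 and 2.00 nuclear CPM, depending on the library. Single ratios were compared by exact permutation tests. The muscle score was the mean z-score of 13 skeletal muscle genes. DESeq2 1.42.0 and limma 3.58.1 were alternatives, with other scalings and filters, the replicate block and each sample left out. The fit on deposited log2 values and the share over genes with few shared windows were chosen after seeing the data.

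The members, gene lists and tests were chosen with earlier results of these data known. All 13 protein-coding members are named. From the list of mtDNA expression genes, 11 core genes and up to 4 largest rises and falls with an adjusted p under 0.05 are named, and from each complex the largest rise and fall. Scripts were tested on simulated data. Per the study, the samples of a genotype are separate mice, so p-values measure the spread between animals.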

Additional observations from a re-analysis of the deposited data

Results flagged for a closer look

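Within groups of 4 samples, 54 sets of values were examined for a sample far from the others, and 4 sets had one by Dixon's 95% critical value, where chance gives about 2.70. The mt-Co2 level in WT 4 was 31.0 nuclear CPM against 57.8 to 63.3 in the other WT samples, and its share of mtDNA counts was 0.00587% against 0.0120% to 0.0128%. The mt-Cytb level in db/db 1 was 73300 against 104000 to 110000 in the other db/db samples. The share of all counts on mtDNA genes in db/db 1 was 30.7% against 36.8% to 37.6%. db/db 1 also had the highest summed level of skeletal muscle genes, 17960 nuclear CPM.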

How the results depend on the processing

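Scaled by nuclear counts, the number of mtDNA genes called higher was 1, and 2 (with mt-Co1) under TMM over all genes, total counts without TMM, nuclear counts without TMM, DESeq2, limma-voom and the replicate block, and 1 to 2 with each sample left out. The number called lower was 2, 0 with the skeletal muscle covariate, and 2 with any sample left out. Scaled by mtDNA counts, 1 was called higher and 2 lower, 3 and 0 with the median of ratios over mtDNA genes, and 0 lower when mt-Nd4 was left out of the library size; with each sample left out these were 1 to 1 higher and 0 to 3 lower. The mtDNA expression genes called higher were 1, 2 with nuclear counts without TMM or at least 10 counts in every sample, 0 with the muscle covariate and 0 to 1 with a sample left out; those called lower were 16, 10 with nuclear counts without TMM, 1 with the muscle covariate and 10 to 15 with a sample left out. Nuclear subunit genes called higher were 4 and lower 41, 1 and 0 with the muscle covariate, and 3 to 4 and 25 to 45 with a sample left out. Mrm1 turned to 0.125 on the log2 scale with the muscle covariate (adjusted p = 0.925). Among genes called in neither fit, the sign also turned for example for mt-Nd1 (0.217), mt-Co2 (0.381), mt-Nd6 (0.146), mt-Cytb (0.165) and Ssbp1 (0.301). The muscle score did not overlap between the groups, and standard errors were larger with it by a median ratio of 1.78. The causes were not tested otherwise, except that leaving out a sample leaves fewer samples.

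The difference in mtDNA share ran from 1.71 to 4.01 percentage points with each sample left out. With 7 samples the exact test cannot go below 0.0571, so leaving out a sample says nothing about its calls; the mt-Nd4 to mt-Nd5 ratio difference ran from -20.9 to -16.2 and that of mt-Nd5 to mt-Nd6 from 160 to 246. The planned ratio of the rRNA genes was not run, since they were not analysed here. Samples of the same number in both groups were different animals, and their deviations correlated at 0.039, 0.049, -0.076 and -0.016, so that the replicate block paired them by number only. With the block 2580 genes were called against 2590. Of the 13 mtDNA genes, mt-Atp8 (3 to 8 counts) and mt-Nd4l (0 to 12 counts) had too few counts to be tested.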
